A study of Mus musculus with 12 samples.

Results

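The cytosolic ribosomal protein genes described here were 81 genes, 50 of the large and 31 of the small ribosomal subunit, among 12167 genes tested. They were chosen by symbol (Rpl or Rps followed by a number or by one of the acidic stalk protein names, with an optional a, x, l or l1) and by a mean of at least 1 RPKM over 12 libraries. RPKM scales a gene's reads to its transcript length and to the library's depth. Of 33531 entries, 84 matched the symbol, and Rpl39l (0.0153 RPKM), Rpl3l (0.0498) and Rps4l (0.205) lay below the threshold. The nearest genes above it were Rpl32l (1.04 RPKM) and Rps27 (2.54). The symbol rule leaves out ribosomal proteins that carry other names, such as Rpsa, Fau and Rps3a1.

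The libraries came from CMM-tetON-shStat3 cells, a mouse acute myeloid leukaemia line with the inv(16) fusion of Cbfb and Myh11, grown in immunodeficient NSG mice after intravenous injection. All groups carried the same construct, in which doxycycline turns on a hairpin RNA against Stat3, and the cells were marked by GFP and mCherry. The 4 groups, of 3 libraries each, were given buffer alone (PBS), the TLR9 agonist oligonucleotide CpG1668, doxycycline (Dox), or CpG1668 with doxycycline (Comb). Treatment began at about 1% marked cells in blood and cells were sorted from spleen 1 day after the last dose. The labels give 6 daily treatments in one place and 3 on alternate days in another. No group received Dox without the hairpin, so the drug and the hairpin cannot be told apart. Whether each library is a mouse of its own is not given in the labels, and p-values cover the spread among these libraries, which may be technical.

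Ribosomal proteins assemble with ribosomal RNA in the nucleolus into a small subunit, which decodes mRNA, and a large subunit, which forms peptide bonds. Nearly all are needed in equal numbers, and their mRNAs begin with a short run of pyrimidines (the terminal oligopyrimidine tract) through which mTOR signalling adjusts their translation. In blood, loss of a single copy of genes such as RPS19 or RPL5 causes the red cell failure of Diamond-Blackfan anaemia, and loss of RPS14 marks a myelodysplastic syndrome. Ribosomal protein mRNAs are also a frequent source of processed pseudogenes, intronless copies scattered over the genome whose reads are hard to assign.

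Depth, estimated from the step that 1 read makes in genes with a single transcript, was 30320000 to 34880000 reads per library. Correlations of log2(RPKM + 1) were 0.992 to 0.996 within groups and 0.970 to 0.994 between them, and no libraries held identical values. The Stat3 transcript was higher, not lower, where Dox was given, at 17.2 ± 0.576 RPKM (mean ± SD, n = 3, as for all such values below) in PBS and 18.9 ± 0.173 in the libraries labelled Dox (limma, log2 change 0.13, adjusted p = 0.044) and 19.4 ± 0.331 in those labelled Comb (0.16, adjusted p = 0.0068). Of the markers of the labelled leukaemia cells, Kit was at 15.8 to 19.7 RPKM and Cbfb at 28.9 to 33.1 over the 12 libraries, Myh11 at 1.46 to 1.68, and Cd34, a stem cell marker, at 0.0336 to 0.0491 in PBS, 0.192 to 0.317 in CpG1668, 0.0990 to 0.213 in Dox and 0.291 to 0.487 in Comb.

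Most of these genes share nearly all of their coding sequence with other entries of the files. Entries whose transcript matched a member's coding sequence at 90% identity or more over most of its length, or that are named as its pseudogenes, are called its copies here, and the values of members with copies are uncertain to that extent. Of 78 members with an annotated coding sequence, 76 had at least 1 copy, and 299 of 1051 copies had at least 1 RPKM. The gene's own entry held under 50% of the RPKM of the gene plus its copies for 64 of the 78 members, and under 10% for 35. Rps29, a zinc-binding protein of the small subunit head, had 312 RPKM over the 12 libraries against 1745 for the processed pseudogene Gm14303. Their coding sequences were identical over 168 bases, so these values depend on how reads were divided and do not show which locus was transcribed. RPKM also divides by the length of each entry, so shares and sums of RPKM, here and below, are not shares and sums of reads. Rpl39, which lines the exit tunnel for the growing peptide, had 265 RPKM against 534 for the processed pseudogene Gm15148, from which it differed at 4 of 153 bases. The coding sequences of Rpl39 and Gm15148, from GENCODE M21 (GRCm38), follow without the stop codon, with capitals at the bases where Gm15148 differs from Rpl39.
Rpl39: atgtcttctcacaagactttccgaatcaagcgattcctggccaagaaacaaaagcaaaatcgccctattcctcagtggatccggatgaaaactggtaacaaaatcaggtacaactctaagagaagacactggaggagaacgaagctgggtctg
Gm15148: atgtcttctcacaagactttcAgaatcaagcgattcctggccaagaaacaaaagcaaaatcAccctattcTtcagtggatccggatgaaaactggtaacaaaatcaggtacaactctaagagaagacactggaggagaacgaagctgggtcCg

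The levels of the genes' own entries ran from 2.54 to 1217 RPKM among these 78 members, with a median of 117 and quartiles of 51.5 and 265 (a ratio of 5.15). With copies added they ran from 59.8 to 2468, with a median of 1377 and quartiles of 917 and 1646 (a ratio of 1.80), and 67 of the 78 lay between 500 and 2500. The spread in level between members was therefore narrower once copies were counted. Rpl5 had 12.8 RPKM in its own entry and 1831 in Gm15500, a transcribed processed pseudogene with the same coding sequence. Rps27 had 2.54 and Rps27rt, a protein-coding entry of the same coding sequence, 1397. Rps7 had 24.7 and Rps7-ps3 1601. The lowest own entries after Rpl32l and Rps27 were Rpl36a (4.41), Rpl35 (5.03) and Rpl9 (10.6). The highest own entries were Rps15 (1217), Rplp0 (1206), Rplp1 (1162), Rpl4 (1130) and Rpl8 (935), of which Rps15 held 88.7% of the RPKM of its family and Rplp0 72.5%. In 3 cases the member is itself a copy annotated as a processed pseudogene. Of these, Rps12l1 had 639 RPKM against 32.3 for Rps12, Rpl6l 374, and Rpl32l 1.04.

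**Figure D1:**
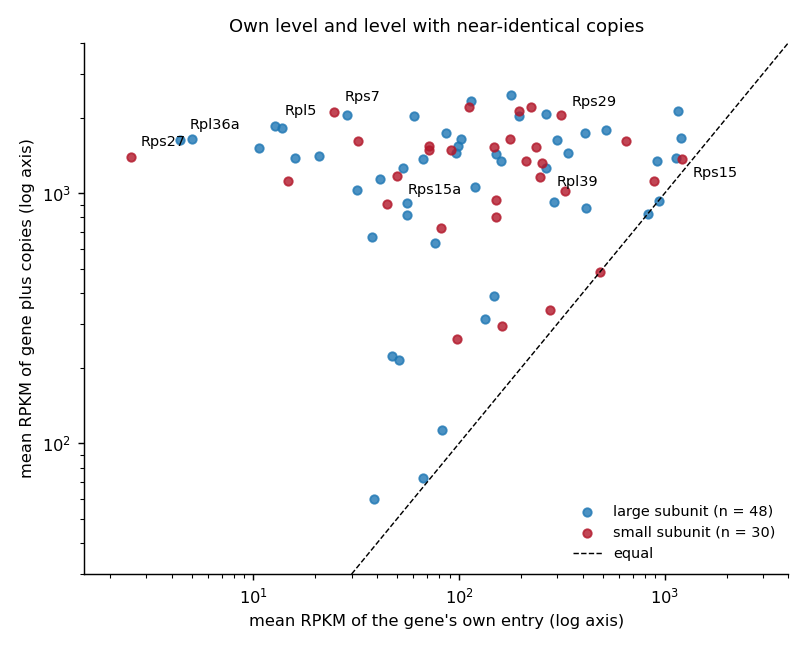
Mean RPKM over 12 libraries of each gene's own entry (x axis, log scale) against the gene plus its near-identical copies (y axis, log scale) for 78 ribosomal protein genes, coloured by subunit. Own entries spread from 2.54 to 1217 RPKM, and 67 of the 78 sums with copies lie between 500 and 2500.

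RefSeq start sites (GRCm38.p6) matched 59 of the 81 members. A run of at least 8 pyrimidines beginning with C was searched within 30 bases on either side of the start, on the gene's strand. It was found in 34 of the 59 (57.6%), against 20.5% of 26966 other genes. A gene with several RefSeq starts was counted if any of them had the run, and likewise for the motifs below. The number of starts per gene was not compared between the sets. A terminal oligopyrimidine tract begins at the first base of the mRNA, whereas a run anywhere in this window was counted. From 250 bases before to 50 after the start, on both strands, CCGGAAG (a core bound by Ets factors such as GABPA) was in 23 (39.0% against 9.86%). AAGATGGC (a core bound by YY1) was in 6 (10.2% against 3.17%), and TATAAA in 8 (13.6% against 15.7%). A match describes the letters only. The windows of the 4 genes below are shown because their own entries passed a test in the comparisons that follow. Each has 30 bases before and 30 from the start onwards on the gene's strand, with the longest such run, or the first of those equally long, in capitals. Further runs, as after the start in Rps7 and Rpl39, are left in lower case. In all 4 genes the run in capitals lies wholly before the RefSeq start used here. By the GENCODE M21 positions given below, Rpl5, Rps15a and Rpl39 begin further upstream, so their runs lie within the gene as annotated there. Whether these runs are part of the mRNA was not tested.
Rpl5, chr5:107900498-107900557, plus strand: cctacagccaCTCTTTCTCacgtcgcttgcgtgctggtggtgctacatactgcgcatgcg
Rps7, chr12:28635924-28635983, minus strand: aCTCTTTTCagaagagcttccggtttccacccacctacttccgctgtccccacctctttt
Rps15a, chr7:118116118-118116177, minus strand: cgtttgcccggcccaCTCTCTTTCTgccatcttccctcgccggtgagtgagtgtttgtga
Rpl39, chrX:37085193-37085252, minus strand: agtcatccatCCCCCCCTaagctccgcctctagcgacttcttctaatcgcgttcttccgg

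CpG1668 alone, compared with PBS, brought few calls among the ribosomal protein genes, and changes were small. In a limma fit of log2(RPKM + 1) over all 12167 genes (called at an adjusted p under 0.05, Benjamini-Hochberg), 2 of 81 members rose and 0 fell, where 5.88% of all genes tested were called (3.06% higher and 2.83% lower). The median log2 change was 0.045 among members and -0.014 among all genes, and the 95% interval lay within 1.5-fold either way for 79 of the 81. Rps29 (ENSMUSG00000034892.8, chromosome 12, 69157722 to 69159186, minus strand) had 291, 281 and 275 RPKM in the PBS libraries and 318, 316 and 332 in the CpG1668 libraries. All CpG1668 libraries lay above all PBS libraries, with means of 322 ± 8.98 and 282 ± 7.92 and a log2 change of 0.19 ± 0.0414 (SE, adjusted p = 0.022). Rps7 (ENSMUSG00000061477.4, chromosome 12, 28630854 to 28635953, minus strand), a small subunit assembly protein mutated in some patients with Diamond-Blackfan anaemia, had 22.2, 20.8 and 21.9 RPKM in PBS and 27.2, 27.1 and 31.0 in CpG1668, again without overlap. Its log2 change was 0.38 ± 0.0987 (SE, adjusted p = 0.048), on an entry that held 1.17% of its family's RPKM. Rplp2, the next by p, did not pass, at 0.23 ± 0.0625 (SE, adjusted p = 0.058).

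Neither call held with copies added, where the log2 change of Rps29 was 0.13 ± 0.0434 (SE, adjusted p = 0.105) and that of Rps7 0.048 ± 0.0410 (SE, adjusted p = 0.562). There 1 member rose and 0 fell (5.88% of all genes called, 3.05% higher and 2.84% lower), namely Rpl39, at 1143 ± 24.4 RPKM in PBS and 1330.3 ± 65.5 in CpG1668 (log2 change 0.22 ± 0.0530 SE, adjusted p = 0.036). The Rps29 call was lost without PBS replicate 2 (adjusted p = 0.079), PBS replicate 3 (0.067), CpG1668 replicate 1 (0.052) or CpG1668 replicate 3 (0.083). The Rps7 call was lost when any single PBS, CpG1668 or Dox library, or Comb replicate 1, was left out (adjusted p of 0.057 to 0.161).

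With Dox alone, 1 of 81 members fell and 0 rose, where 5.98% of all genes were called (3.95% higher and 2.04% lower). The median log2 change was 0.057 among members and 0.014 among all genes, and the interval lay within 1.5-fold for all 81. The gene that fell was Rpl5 (ENSMUSG00000058558.12, chromosome 5, 107900502 to 107909005, plus strand), which joins Rpl11 and the 5S ribosomal RNA in a particle that can bind Mdm2 and so stabilise p53. Its own entry had 14.7, 14.2 and 14.3 RPKM in PBS and 11.9, 11.9 and 11.5 in Dox. Every Dox library lay below every PBS library, with means of 11.8 ± 0.234 and 14.4 ± 0.259 and a log2 change of -0.27 ± 0.0406 (SE, adjusted p = 0.0039). The call held in the other 22 alternatives, leaving out each library among them, but not with copies added. This entry held 0.689% of the RPKM of Rpl5 and its copies. Their sum was 1782 ± 58.4 in PBS and 1871 ± 48.0 in Dox, a difference of the opposite sign that did not pass (log2 change 0.070 ± 0.0444 SE, adjusted p = 0.413). Gm15500 (ENSMUSG00000086583.3, chromosome 7, 114705217 to 114706235, minus strand), which holds most of that sum, had 1761 ± 57.3 in PBS and 1850.3 ± 47.8 in Dox.

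With copies added, 1 member rose under Dox and 0 fell (5.97% of all genes called, 3.94% higher and 2.03% lower). This was Rps29, whose sum was 1859.9 ± 59.5 RPKM in PBS and 2119 ± 78.9 in Dox (log2 change 0.19 ± 0.0434 SE, adjusted p = 0.027). The own entry of Rps29 had 315, 316 and 300.4 RPKM in the Dox libraries, all above the PBS libraries, and did not pass (log2 change 0.14 ± 0.0414 SE, adjusted p = 0.080). Rps15a, the next by p, did not pass either, at 0.12 ± 0.0427 (SE, adjusted p = 0.143).

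In Comb against PBS, 4 of 81 members rose and 1 fell, a share of 6.17% where 15.5% of all genes were called (9.13% higher and 6.4% lower). The median log2 change was 0.083 among members, 0.044 among the 50 of the large and 0.11 among the 31 of the small subunit, beside 0.0028 among all genes. With copies added the subunit medians lay closer together, at 0.10 for the large and 0.12 for the small subunit. Rps29 rose, at 341, 344 and 319 RPKM in the Comb libraries, all above the PBS libraries, with a mean of 334 ± 13.5 and a log2 change of 0.24 ± 0.0414 (SE, adjusted p = 0.0020). This call held in the 23 alternatives tried, which gave log2 changes of 0.15 to 0.28 and adjusted p of 0.00054 to 0.014. Among them was the sum with copies, of 1926, 1843 and 1811 in PBS and 2285, 2194 and 2196 in Comb (log2 change 0.26 ± 0.0434 SE, adjusted p = 0.0019). Its copy Gm14303 (ENSMUSG00000081344.5, chromosome 2, 172509521 to 172509691, minus strand) had 1575 ± 52.7 in PBS and 1885 ± 47.4 in Comb and also rose (log2 change 0.26, adjusted p = 0.0031). Rpl5 fell in its own entry, at 11.5, 11.7 and 12.3 RPKM in Comb against 14.2 to 14.7 in PBS (log2 change -0.26 ± 0.0406 SE, adjusted p = 0.0011). With copies it did not, at 1907 ± 61.4 (log2 change 0.10 ± 0.0444 SE, adjusted p = 0.167).

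**Figure D2:**
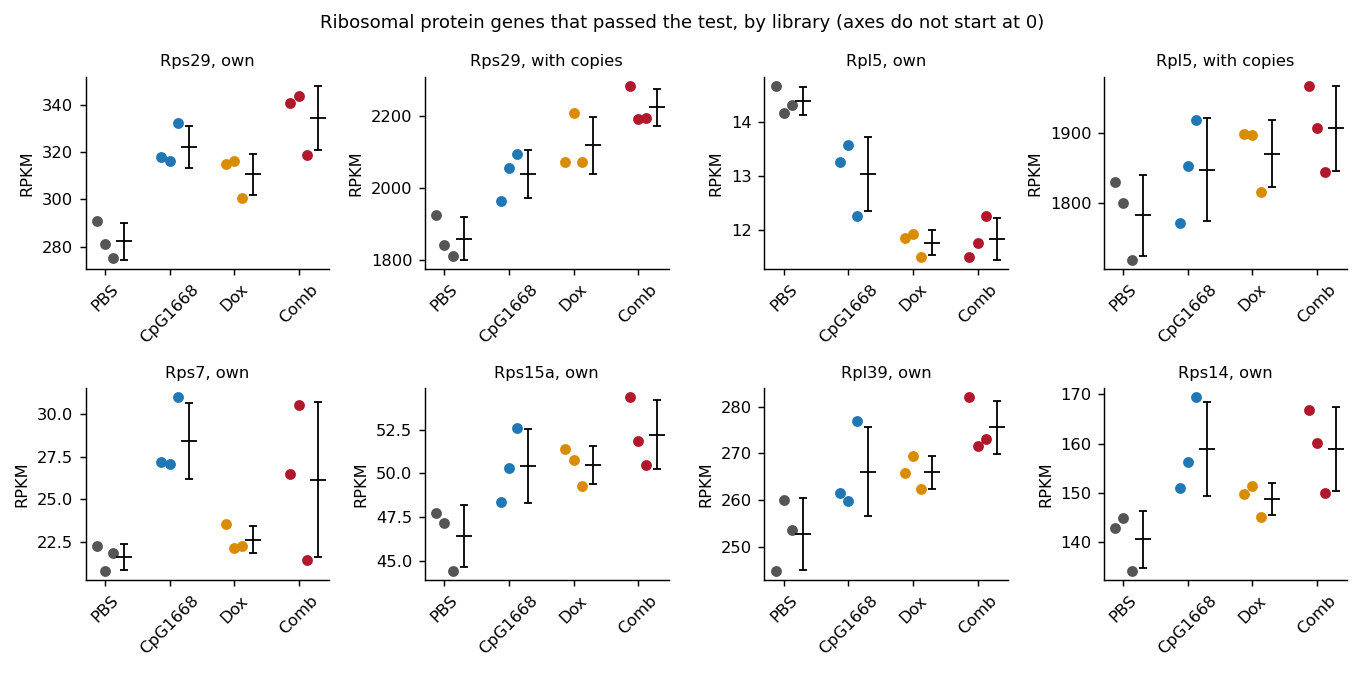
RPKM in each library (points) of the genes that passed in at least 1 comparison with PBS, as own entries and, for Rps29 and Rpl5, with copies, and the group mean ± SD (bars, n = 3). Rps29 lies above PBS in all treated libraries in both panels, whereas Rpl5 lies below PBS in its own entry and not in the sum.

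The other 3 genes that rose in Comb were Rps15a, Rpl39 and Rps14. Rps15a (ENSMUSG00000008683.16, chromosome 7, 118104372 to 118116188, minus strand), of the small subunit, had 47.7, 47.1 and 44.4 RPKM in PBS and 54.4, 51.8 and 50.5 in Comb, without overlap (log2 change 0.17 ± 0.0427 SE, adjusted p = 0.022). Rpl39 (ENSMUSG00000079641.3, chromosome X, 37082520 to 37085402, minus strand) had 245, 259.9 and 253 in PBS and 282, 272 and 273 in Comb, also without overlap (log2 change 0.12 ± 0.0372 SE, adjusted p = 0.043). Both sums with copies passed as well, at 0.19 ± 0.0521 (SE, adjusted p = 0.033) for Rps15a and 0.24 ± 0.0530 (SE, adjusted p = 0.010) for Rpl39. Rps14 (ENSMUSG00000024608.11, chromosome 18, 60747098 to 60778546, plus strand) had 143, 145 and 134 in PBS and 167, 160.1 and 149.9 in Comb, without overlap (log2 change 0.18 ± 0.0522 SE, adjusted p = 0.043), and its sum with copies did not pass (log2 change 0.11 ± 0.0489 SE, adjusted p = 0.162). The Rps15a call was lost without PBS replicate 3 (adjusted p = 0.082), Comb replicate 1 (0.084) or Comb replicate 2 (0.052). The Rpl39 call was lost when any single library other than CpG1668 replicate 3 was left out (up to adjusted p = 0.135), and that of Rps14 in all such fits but those without CpG1668 replicate 1, CpG1668 replicate 3 or Comb replicate 3 (up to 0.144). Under quantile normalization 2 members rose and 3 fell, where 8.09% of all genes were higher and 11.1% lower. Without Comb replicate 3, 10 rose and 1 fell (6.71% and 4.61% of all genes), and without CpG1668 replicate 3, 7 rose and 1 fell (8.99% and 6.67%).

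With copies added, 8 members rose in Comb against PBS and 0 fell, where 15.6% of all genes were called (9.19% higher and 6.41% lower). They were Rpl30, Rpl36a, Rpl39, Rps15a, Rps23, Rps27, Rps28 and Rps29, of which 3 (Rpl39, Rps15a and Rps29) had also risen in their own entries. Rpl30, Rpl36a and Rpl39 belong to the large subunit and the other 5 to the small subunit. Rpl30 was at 753 ± 34.4 RPKM in PBS and 858 ± 7.40 in Comb (log2 change 0.19 ± 0.0491 SE, adjusted p = 0.023). Rps23, which sits at the decoding centre, was at 1990.0 ± 89.9 and 2256 ± 95.6 (log2 change 0.18 ± 0.0548 SE, adjusted p = 0.046). The changes of the 8 sums ran from 0.16 to 0.26. Over all 81 sums the median was 0.11 and 79 were positive, against 67 of the own entries. In 12 of the 81 the own entry was lower in Comb and the sum higher (Rpl5, Rpl11, Rps6 and Rps23 among them), and the opposite turn was found in 0. The sums share libraries and, for Rps12, Rpl6 and Rpl32 and their copies among the members, also entries, so these are not independent counts.

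Both Rps29 and Rpl39 have short coding sequences, and the changes were given by length as a description across genes, which are not independent. Both were called above and belong to the 9 shortest members below, so the medians of that group draw on the same calls. Over the 78 members with a coding sequence, Spearman's rho between coding length and log2 change of the own entries was -0.24 in CpG1668, -0.32 in Dox and -0.26 in Comb against PBS. The 9 members with the shortest coding sequences (under 300 bases) had median log2 changes of 0.14, 0.078 and 0.12, and the other 69 had 0.038, 0.057 and 0.077. Over 9630 protein-coding genes tested, rho with exon length, a different measure from coding length, was 0.057, -0.034 and -0.059. These comparisons share the PBS libraries.

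**Figure D3:**
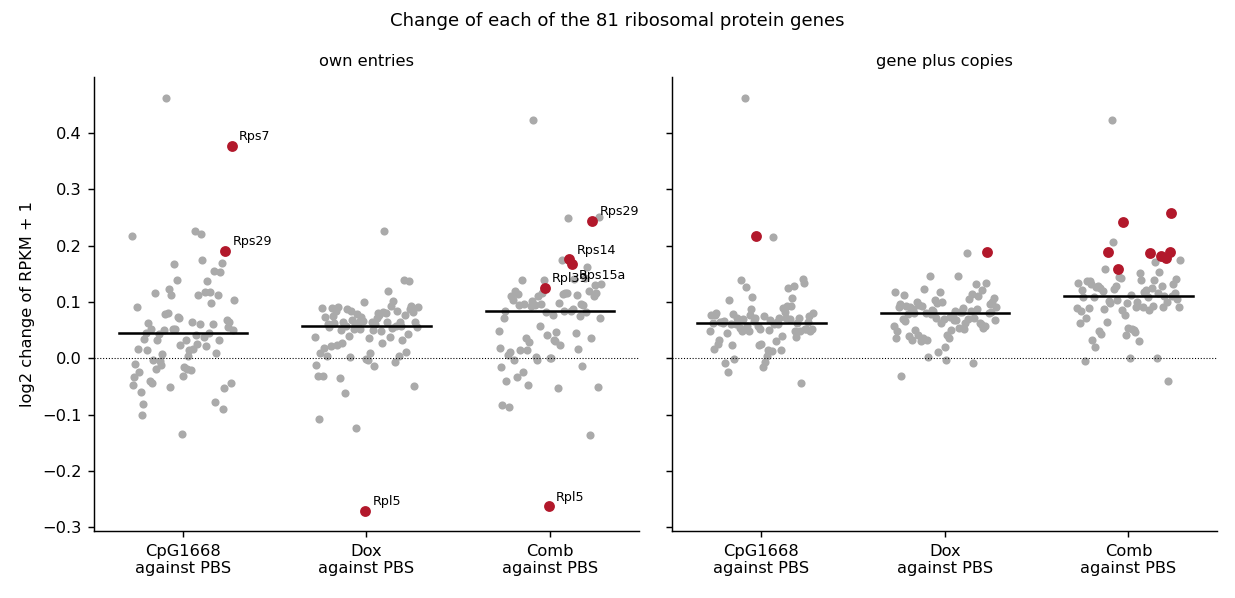
Log2 change of RPKM + 1 against PBS for each of the 81 genes (points, spread sideways in order of symbol) in CpG1668, Dox and Comb, as own entries (left) and with copies (right); black lines are medians and red points passed the test. Medians of own entries are 0.045, 0.057 and 0.083, and with copies 0.063, 0.080 and 0.11.

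Transcripts used as markers of other blood cells differed between the same groups. In Comb against PBS, 11 of 11 late neutrophil markers and 7 of 7 tested monocyte markers rose, and 8 of 9 erythroid markers fell. Of all genes, 9.13% were higher and 6.4% lower there. In CpG1668 against PBS 8, 7 and 4 of these lists were called in the same directions (3.06% of all genes higher, 2.83% lower). In Dox against PBS the counts were 11, 7 and 6 (3.95% and 2.04%). Summed RPKM of the late neutrophil list (S100a8, S100a9, Ngp and others) was 107 to 218 in PBS, 643 to 838 in CpG1668 and 577 to 2291 in Dox, and 1716 to 4512 in Comb. For the monocyte list it was 20.4 to 37.7 in PBS, 122 to 141 in CpG1668 and 93.7 to 163 in Dox, and 271 to 404 in Comb, and for the erythroid list 9865 to 13346 in PBS, 3956 to 6845 in CpG1668 and 2052 to 5004 in Dox, and 2100.5 to 3933 in Comb. Of the B cell list only Ighm was tested, and it rose in all 3 comparisons with PBS. Summed B cell markers reached at most 9.90 RPKM and those of T and NK cells 0.710, and 0 of the 4 tested splenic macrophage and stroma markers passed in any comparison with PBS, with sums of 5.30 to 23.1. Among defining markers, Cd3e was at or below 0.0158 RPKM, and 0 markers of these lists were at 0 in all 12 libraries. In sorted bulk samples a smaller share of cells of a kind and less RNA per cell cannot be told apart. Whether these transcripts came from other cells or from the leukaemia cells was not tested. The part of these markers in the changes of ribosomal protein genes was not tested either.

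Adding Dox to CpG1668 or CpG1668 to Dox gave no call among these genes. In Comb against CpG1668, 0 of 81 passed in limma (3.26% of all genes, 3.07% higher and 0.197% lower) and 3 had an unadjusted p under 0.05. In Comb against Dox, 0 passed (3.48% of all genes, 2.81% higher and 0.666% lower) and 4 had such a p. For the interaction, which asks whether the combination departs from the sum of both log2 effects, 0 members and 0.0% of all genes passed, and 2 members had such a p. The same counts of 0 were found with copies added, where 3.27% of all genes passed in Comb against CpG1668, 3.48% in Comb against Dox and 0.0% for the interaction. Medians were 0.021, 0.023 and -0.028, and intervals lay within 1.5-fold for 81, 80 and 80 of 81. The members with the smallest p, which did not pass, were Rpl5 (log2 change -0.13, adjusted p = 0.13), Rpl23a (log2 change 0.14, adjusted p = 0.171) and Rpl10 (log2 change -0.17, adjusted p = 0.207) in Comb against CpG1668. In Comb against Dox they were Rpl17 (log2 change -0.16, adjusted p = 0.13), Rps27l (log2 change -0.15, adjusted p = 0.180) and Rpl36a (log2 change 0.18, adjusted p = 0.209). For the interaction they were Rpl5 (log2 change 0.14, adjusted p = 0.723), Rpl10 (log2 change -0.21, adjusted p = 0.733) and Rpl37 (log2 change -0.15, adjusted p = 0.821).

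By role, the stalk proteins recruit elongation factors to the large subunit. Rplp0 was at 1159.8 ± 54.4 RPKM in PBS and 1241 ± 39.4 in Comb, Rplp1 at 1140.2 ± 76.6 and 1157 ± 46.6, and Rplp2 at 61.5 ± 2.81 and 69.6 ± 5.51. None of them passed (adjusted p = 0.228, 0.841 and 0.084). Rpl11, the partner of Rpl5, was at 16.1 ± 0.731 in PBS and 15.9 ± 0.238 in Comb, with 15.7 ± 0.408 for CpG1668 and 15.7 ± 0.390 for Dox, with all 12 libraries between 15.3 and 16.8. Its entry held 1.15% of its family, and in Comb against PBS the log2 change was -0.015 for the entry and 0.062 with copies (adjusted p = 0.411). Rps6, the substrate of S6 kinases, was at 231 ± 19.1 in PBS and 223 ± 12.8 in Comb (log2 change -0.051, adjusted p = 0.688). That entry held 10.1% of its family, and with copies the sign turned, at 2103 ± 89.8 and 2317 ± 57.0 (log2 change 0.14, adjusted p = 0.069). The level of its mRNA says nothing of its phosphorylation. Rpl10, which completes large subunit maturation, was at 27.0 ± 1.26 in PBS, 31.5 ± 2.01 in CpG1668 and 27.9 ± 2.15 in Comb, and did not pass in CpG1668 (log2 change 0.22, adjusted p = 0.068). That entry held 1.38% of its family, and with copies the change in CpG1668 was 0.049 (adjusted p = 0.622).

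Rps29 and Rps15a, described above, are among the genes reported as mutated in Diamond-Blackfan anaemia. Rps19, the gene most often mutated there, did not pass in Comb against PBS, and was at 42.0 ± 2.13 RPKM in PBS and 45.5 ± 2.37 in Comb (log2 change 0.11, adjusted p = 0.173). That entry held 4.93% of its family. With copies Rps19 did not pass, at 842 ± 54.8 in PBS and 947 ± 47.8 in Comb (limma, log2 change 0.17, adjusted p = 0.064). Rps10, Rps24, Rps26 and Rpl35a, also mutated in that disease, did not pass either, with log2 changes of 0.11, 0.094, 0.082 and -0.0026. With copies these were 0.14, 0.13, 0.11 and 0.13, and again did not pass, so the sign of Rpl35a, whose own entry held 3.09% of its family, turned. Rps27a, made as a fusion with ubiquitin, was at 104 ± 2.82 and 114 ± 7.54 (log2 change 0.12, adjusted p = 0.146). That entry held 5.02% of its family, and with copies the change was 0.10 (limma, adjusted p = 0.224). Rpl13a, also known for translational silencing in interferon-treated myeloid cells, was at 502 ± 28.1 and 532 ± 26.3 (log2 change 0.083, adjusted p = 0.353). Of the parents of paralogs, Rps4x was at 619 ± 13.9 and 677 ± 15.0 (log2 change 0.13, adjusted p = 0.060), Rpl3 at 98.8 ± 4.14 and 95.5 ± 1.53, and Rpl7 at 405 ± 17.1 and 427 ± 6.80. The Rpl3 entry held 6.66% of its family, and with copies its sign turned, at 1414 ± 55.7 and 1477 ± 39.8 (log2 change 0.064, adjusted p = 0.377).

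Paralogs that can replace or accompany a ribosomal protein were followed next. Rpl22l1, which can stand in for Rpl22, was at 47.1 ± 3.41 RPKM in PBS, 46.6, 43.9 and 46.4 in the CpG1668 libraries and 49.5 ± 2.36 in Dox, and 45.9 ± 0.775 in Comb. Its ratio to Rpl22 with copies was 0.137 to 0.171 over the 12 libraries. Rps27l, a target of p53 in other cells, was at 101 ± 2.99 in PBS, 102 ± 4.33 in Dox and 92.3 ± 4.87 in Comb. It did not pass in Comb against PBS (log2 change -0.14, adjusted p = 0.089). With copies the change was smaller (limma, log2 change -0.040, adjusted p = 0.584). The ratio of the own entry of Rps27l, which held 37.5% of its family, to Rps27 with copies was 0.0614 to 0.0786. Rpl7l1, which acts in assembly of the large subunit, was at 38.1 ± 1.05 in PBS and 38.9 ± 1.10 in Comb. This own entry held 64.8% of its family, and its ratio to Rpl7 with copies was 0.0426 to 0.0465. Rpl39l, which replaces Rpl39 in the male germ line, was at or below 0.0687 RPKM in each library. Rpl3l and Rps4l did not exceed 0.108 and 0.501.

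Within groups the median spread of the 81 genes was close to that of other entries of at least 50 RPKM. The median SD between replicates was 0.064 on the log2 scale, beside 0.063 among 938 other genes of at least 50 RPKM and 0.069 among all genes tested, and ran from 0.0378 for Rpl39 to 0.278 for Rpl32l. A single axis held 47.5% of the variance around group means, and the median correlation between pairs of members over these residuals was 0.64. For the 938 other genes these values were 40.4% and 0.28, a description over 12 libraries that share their depth scaling. The 938 leave out the members but not their copies, such as Gm15500 and Gm14303. Members under 50 RPKM, such as Rpl5 and Rps27, were kept among the 81, so the sets were not matched in level. Most members were low together in PBS replicate 3, CpG1668 replicate 1, Dox replicate 3 and Comb replicate 3. Their median deviations from the group mean there were -0.056, -0.068, -0.050 and -0.036. CpG1668 replicate 3 was high, at 0.065, with 76 of 81 members above the group mean. The median over all genes deviated by -0.0165 to 0.0132. These shifts compare with median changes against PBS of 0.045 in CpG1668, 0.057 in Dox and 0.083 in Comb.

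**Figure D4:**
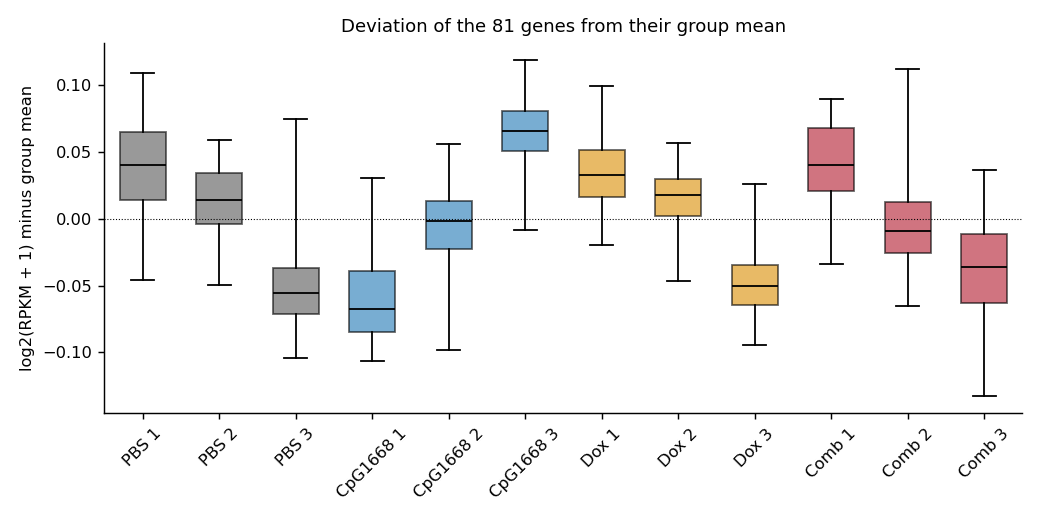
Deviation of log2(RPKM + 1) from the group mean for the 81 genes in each library; boxes span the quartiles, the line is the median and whiskers reach percentiles 5 and 95. Medians run from -0.068 in CpG1668 replicate 1 to 0.065 in CpG1668 replicate 3.

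Summed over the 81 own entries, PBS libraries had 19431, 19043 and 18053 RPKM, CpG1668 libraries 18563, 19492 and 20396, Dox libraries 20109, 19874 and 18902 and Comb libraries 20628, 19717 and 19377. The groups overlapped. With copies the sums were 99209, 97864 and 91684 in PBS, 95961, 100808 and 105479 in CpG1668, 103191, 103783 and 98008 in Dox and 107915, 102804 and 101584 in Comb. Here the Comb libraries lay above the PBS libraries, while CpG1668 and Dox overlapped with PBS. As a share of each library's summed RPKM, genes with copies made up 24.8% to 26.4% in PBS, 26.8% to 28.0% in CpG1668 and 26.7% to 27.6% in Dox, and 27.2% to 28.3% in Comb. By that measure all 9 treated libraries lay above the 3 PBS libraries. The summed RPKM of 9 erythroid markers, most of it from globins, was 9865 to 13346 in PBS and 2100.5 to 3933 in Comb, and is part of the same total. Values were also scaled to the summed RPKM of all entries but the 81, a sum in which the copies remain. Then 12 members rose in CpG1668 (3.99% of all genes higher and 1.64% lower), and 14 rose and 1 fell in Comb (9.42% and 5.15%). In Dox 2 rose and 1 fell (3.78% and 1.71%).

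**Figure D5:**
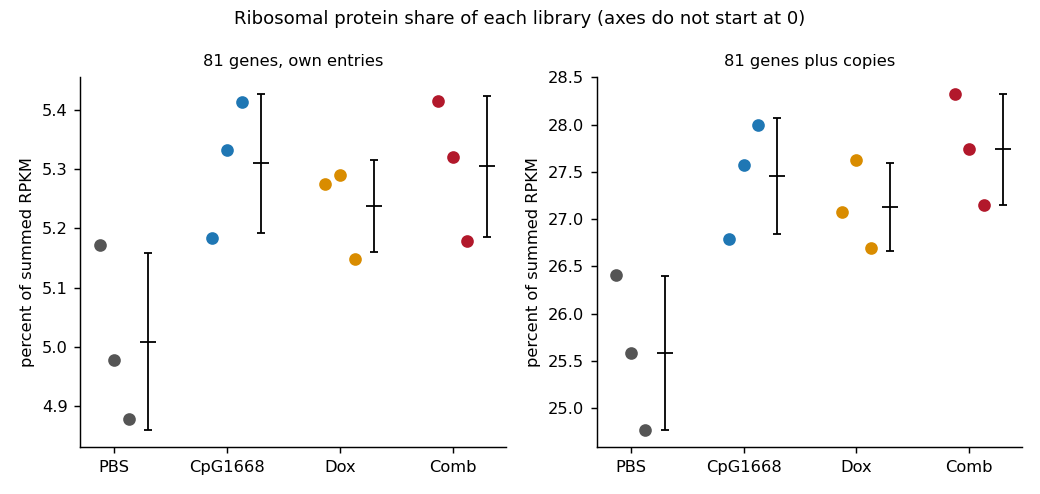
Share of each library's summed RPKM (percent) held by the 81 genes as own entries (left) and with copies (right); points are libraries, bars the group mean ± SD (n = 3). With copies, PBS libraries reach at most 26.4% and treated libraries start at 26.7%.

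Genes around the ribosome were followed as lists. Of 5 listed ribosomal proteins named otherwise (Rpsa, Fau, Rpl36al and Rack1 among them), 0 passed in any comparison, with a median log2 change of 0.11 in Comb against PBS. Rps3a1, which is not in that list, did not pass in any comparison either, with log2 changes of -0.0048 in CpG1668 and 0.030 in Comb against PBS. Of 20 translation factors and other mRNAs with an oligopyrimidine tract, 0 passed in any comparison (median 0.037). Eef1a1, which brings aminoacyl-tRNA to the ribosome, was at 3798 ± 84.2 RPKM in PBS and 4006 ± 84.4 in Comb. Of 18 genes of RNA polymerase I and its factors, 2 fell and 0 rose in Comb against PBS (11.1%, beside 15.5% of all genes), namely Taf1b (log2 change -0.16, adjusted p = 0.025) and Rrn3 (log2 change -0.15, adjusted p = 0.047), both initiation factors for ribosomal RNA. Of 37 nucleolar assembly factors, 1 fell and 0 rose in that comparison (6.4% of all genes fell), the large subunit export adaptor Nmd3 (log2 change -0.22, adjusted p = 0.042). In CpG1668 and in Dox against PBS, 0 genes of either list passed.

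Of 21 tested regulators of ribosome production, 1 fell in CpG1668 against PBS (4.76%, beside 5.88% of all genes), the Myc antagonist Mxi1 (log2 change -0.17, adjusted p = 0.036), and 0 passed elsewhere. Myc itself was at 83.8 ± 2.83 RPKM in PBS and 74.4 ± 5.25 in Comb and did not pass (log2 change -0.17, adjusted p = 0.120). Of 11 tested genes of ribosome rescue and recycling, 1 fell against PBS in each treated group (9.09%, beside 5.88%, 5.98% and 15.5% of all genes in CpG1668, Dox and Comb). This was Rnf10, a ubiquitin ligase for stalled small subunits, at 30.2 ± 1.11 in PBS, 26.2 ± 1.23 in CpG1668 (log2 change -0.20, adjusted p = 0.033) and 26.1 ± 1.52 in Dox (log2 change -0.21, adjusted p = 0.027), and 25.6 ± 0.533 in Comb (log2 change -0.23, adjusted p = 0.0073). These 3 comparisons share the PBS libraries. Of 77 tested genes with symbols of mitochondrial ribosomal proteins, 2 fell and 0 rose in CpG1668 and in Comb against PBS (2.60%, beside 5.88% and 15.5% of all genes). They were Mrps2 and Mrps36, and 0 passed in Dox against PBS. The list was made by symbol, which does not show that each product is part of that ribosome. Mrps36 was at 17.3 ± 0.738 in PBS and 14.5 ± 0.784 in Comb (log2 change -0.24, adjusted p = 0.019). Their median was -0.038 in Comb against PBS, where that of the cytosolic genes was 0.083. In Comb against CpG1668, in Comb against Dox and for the interaction, 0 genes of these lists passed.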

How the data were processed

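RNA of 12 libraries was measured as RPKM per gene symbol. The authors deposited 1 table of RPKM per library, and per the submitters' processing notes STAR 2.7.9, Partek 7.18.0723 and build mm10 were used, with no roles given. How reads shared by several loci were counted is not given in the sources used here. Depth was estimated, since 72.6% to 74.2% of the 4852 to 5190 genes with a single transcript lay within 0.05 of a whole read. It covers counting error only, as reads carry no molecular tags. Genes with a mean of at least 1 RPKM were fitted as log2(RPKM + 1) with limma 3.58.1 in R 4.3.3. One model of 4 group means with 8 residual degrees of freedom and an intensity trend was used, with Benjamini-Hochberg adjustment over all 12167 genes in each of 6 contrasts. The pseudocount understates changes of low entries such as Rpl32l.

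Copies were entries of GENCODE M21 matched by blastn 2.17.0 to a member's longest coding sequence at 90% identity or more, over at least 80% of that sequence, or over at least 80% of the copy and 100 bases. Entries named after a member with the suffix ps were added. Their RPKM were summed with the member's. GENCODE M21 gave identifiers and positions for 32391 symbols. Alternatives were a pseudocount of 0.1, no filter or 5 RPKM, 4 other scalings, no trend, only the groups compared, a replicate block, leaving out each library, and adding copies. The script was tested on simulated data. Genes were named for their role, or as those called or with the smallest p in each contrast, or as the 5 highest, the 5 lowest or nearest the threshold in level, or as called genes of a list. The members, lists and markers were chosen with earlier results of these data known, and support no direction on their own. Protein sequences, and promoters of members outside the RefSeq table, were not used here. Some results are not reported here.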

Additional observations from a re-analysis of the deposited data

How the results depend on the processing

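The count of members called in CpG1668 against PBS (2) was 1 without the filter, without the intensity trend, with only the groups compared, with the replicate block and with copies added. It was 4 with median-of-ratios scaling and 6 with quantile normalization (5.67% and 5.81% of all genes called). It was 10 with scaling to the summed RPKM and 12 with scaling to that of all entries but the 81, copies included (5.45% and 5.63%). Leaving out 1 library gave 0 to 4, with 0 without PBS replicate 2, PBS replicate 3 or CpG1668 replicate 3 and 4 without Comb replicate 3. In Dox against PBS (1) both scalings to summed RPKM gave 3. In Comb against PBS (5) the count was 3 without the trend, 2 with only the groups compared, 3 with the replicate block, 8 with copies added, 14 and 15 with the 2 scalings to summed RPKM (14.4% and 14.6% of all genes), and 2 to 11 leaving out 1 library, with 11 without Comb replicate 3 (11.3% of all genes). The median change in Comb against PBS was 0.020 under quantile normalization. In Comb against Dox, 0 to 1 members were called leaving out 1 library, the 1 without Comb replicate 3. Adding copies, an alternative chosen after the data were seen, raised the mean summed RPKM to 96253, 100749, 101661 and 104101 in PBS, CpG1668, Dox and Comb. It reversed Rpl5 in Dox against PBS (0.070), Comb against PBS (0.10), Comb against CpG1668 (0.046) and the interaction (-0.024). It also reversed Rpl10 in Comb against CpG1668 (0.039) and Rpl17 in Comb against Dox (0.026). Over all 81 members, the sign turned with copies in 19 in CpG1668, 10 in Dox and 12 in Comb against PBS. The sums hold entries that the own values do not, and other causes were not tested. The other 266 values of counts, medians and sums kept their place. Of single genes, 384 values stayed on their side of the threshold, 55 lost and 11 gained a call. Libraries with the same replicate number did not deviate together over genes (r of -0.21 to 0.27, median -0.059), so the numbers were not taken to pair them. With the replicate block the calls of Rps29, Rpl5 and Rps15a in Comb against PBS, of Rps29 in CpG1668 and of Rpl5 in Dox held, while Rpl39 and Rps14 in Comb and Rps7 in CpG1668 did not pass. The interaction could not be fitted with only the groups compared, since it needs all 4. Over all genes, the share of calls that were higher moved with the scaling, from 58.8% to 42.1% in Comb against PBS, from 65.9% to 51.5% in Dox and from 94.0% to 82.3% in Comb against CpG1668 (these by quantile normalization) and from 52.0% to 69.2% and 70.8% in CpG1668 (the 2 summed scalings). The median of members in Comb against CpG1668 (0.021) was -0.016, -0.011 and -0.012 under these. A gene of 1 kb with 3 reads would have 0.0860 to 0.0989 RPKM, and the lowest member, Rpl32l, had 1.04.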
